A study of Mus musculus with 6 samples.

Results

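Integrin and laminin genes were examined in RNA-seq of mouse muscle satellite cells from mice with a conditional deletion of Hira (cKO), which encodes a histone chaperone, and from control mice. The members were the protein-coding genes of GENCODE M21 whose symbols name an integrin alpha chain, an integrin beta chain or a laminin alpha, beta or gamma chain. The rule gave 37 of the 55536 genes in the files, and they were separated into 7 leukocyte integrins, 1 platelet integrin, 18 matrix-binding integrins and 11 laminin chains. All 37 passed the filter on low counts and were tested.

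Control cells were Pax7CreErt2;Hira fl/+ and cKO cells were Pax7CreErt2;Hira fl/fl, with 3 samples of each. The deposited labels call the control genotype WT, whereas the study's methods describe it as carrying 1 floxed allele. Strain was labelled C57BL/6J. Animals of both groups were adult males, carried the tamoxifen-inducible Cre under the control of Pax7, a gene of satellite cells, received tamoxifen, and had the tibialis anterior muscle injured with barium chloride. At 5 days post-injury, cells that stained for CD34 and integrin α7 and not for CD45, TER119 or SCA1 were sorted, plated on Matrigel and cultured for 48 h at low density in high serum medium, with bFGF added. Itga7, one of the members, therefore encodes an antigen that selected the cells, and Matrigel is itself a laminin-rich matrix of mouse origin. The samples were described as independent RNA samples, and nothing said whether each came from a separate mouse, so the p-values measure the spread between these samples, which may be technical.

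Integrins are cell surface receptors made of 1 alpha and 1 beta chain. The alpha chain sets most of the choice of ligand, and chains are grouped by whether they bind collagens, laminins, proteins with an RGD motif such as fibronectin, or counter-receptors on other cells. Laminins are trimers of 1 alpha, 1 beta and 1 gamma chain that polymerise into the basement membrane. A satellite cell lies between its myofibre and that basement membrane, and the dimer of Itga7 and Itgb1 is the main laminin-binding integrin of skeletal muscle. Leukocyte integrins, here Itgb2, Itgb7 and alpha chains that pair with them, serve adhesion and migration of immune cells. Itga4, which could also be placed with them, was counted with the matrix-binding integrins.

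Between 47944477 and 63323577 reads per sample were assigned to genes. Values in single samples are given below as read counts or as CPM (counts per 1000000 reads assigned to genes), always in the order of replicates 1, 2 and 3. Levels of different members were compared only in CPM per kb of merged exon. Differences are log2 fold changes of cKO over control, with the standard error (SE) of the fit, and adjusted p-values come from the quasi-likelihood test of edgeR, corrected by the Benjamini-Hochberg method across all 22404 genes that were tested, with a gene called at an adjusted p under 0.05. Hira itself gave 375, 348 and 341 reads in the control samples and 161, 293 and 272 in the cKO samples, with the groups apart (log2 fold change -0.43, SE 0.12, adjusted p = 0.0237). Leaving out control replicate 1 raised that adjusted p to 0.104. The level of Hira in cKO was 0.741-fold that of control. The study reported a sharp fall of Hira mRNA by RT-qPCR and no detected HIRA protein in cKO satellite cells. Those are other measures, and how complete the deletion was in these samples was not tested.

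In cKO, 15 of the 37 members were called higher and 4 were called lower. Over all genes tested, 15.8% were called, 9.38% higher and 6.46% lower. The median log2 fold change of the 37 members was 0.23, beside -0.0011 for all genes tested. CPM values of the 2 groups did not overlap in 20 of the 37 members, against 31.4% of all genes tested. Of all calls, 59.2% were higher, and scaling by total counts alone made that 70% and gave 15 members higher and 3 lower. The members with the largest differences were the leukocyte chains Itgb2, Itgax and Itgam, the laminin chain Lama4 and the collagen receptor chain Itga1. The 4 members called lower were Itga6, Itga7, Itgb6 and Lamb3, which fell by 0.12 to 0.29 on the log2 scale. Of the 19 calls, 15 held with each library left out in turn. In a bulk sample, a change in the number of cells of a type and a change in RNA per cell cannot be told apart. cKO replicate 2 held the highest CPM of its group for 13 of the 15 members called higher and the lowest for 3 of the 4 called lower.

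**Figure D1:**
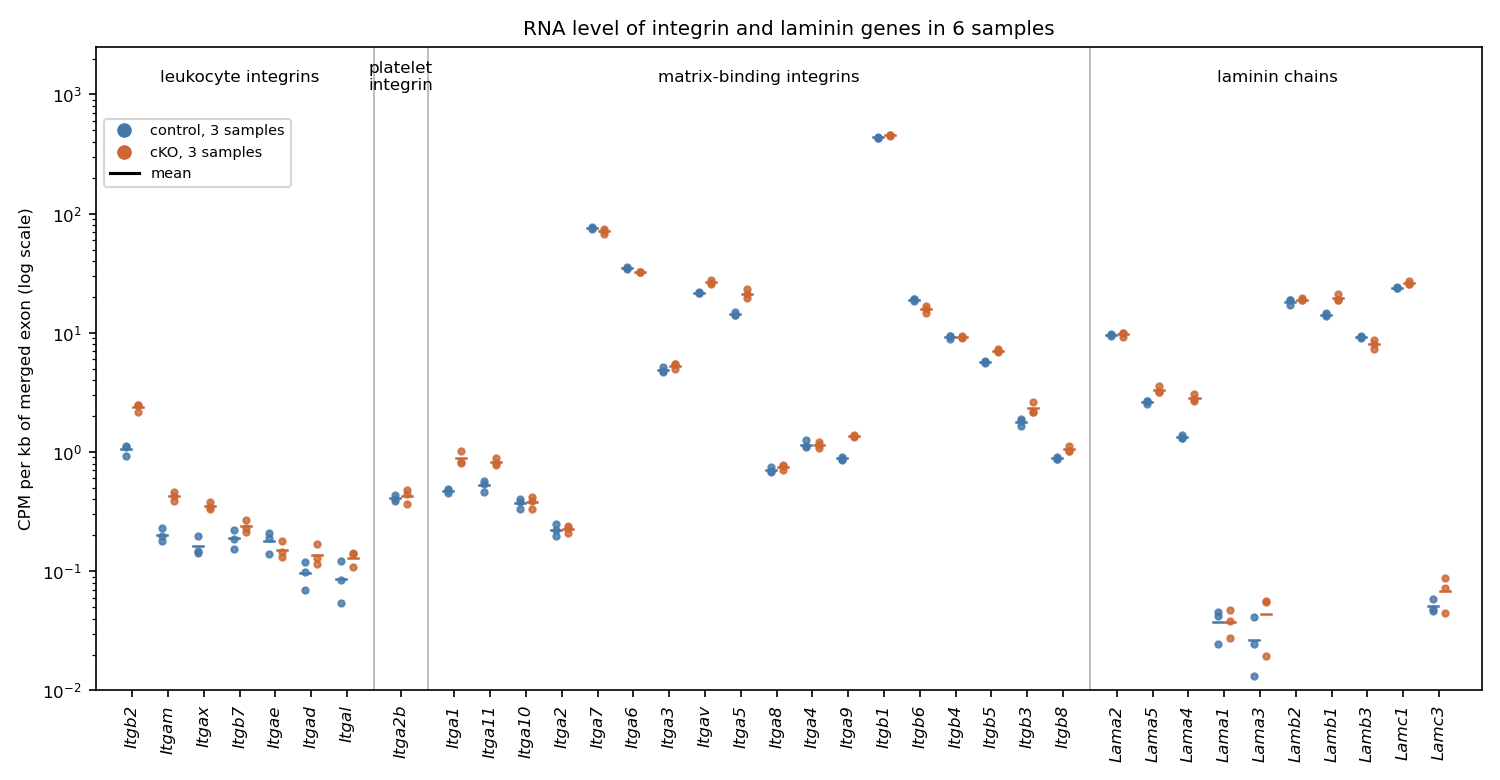
RNA level of the member genes reported here (x axis) as CPM per kb of merged exon on a log scale (y axis) in the 3 control and 3 cKO samples, each point being 1 sample and each short line a group mean. Itgb1 stands highest of all members in both groups, the leukocyte chains lie near or under 1 CPM per kb in control, and Lama1, Lama3 and Lamc3 are the lowest laminin chains.

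**Figure D2:**
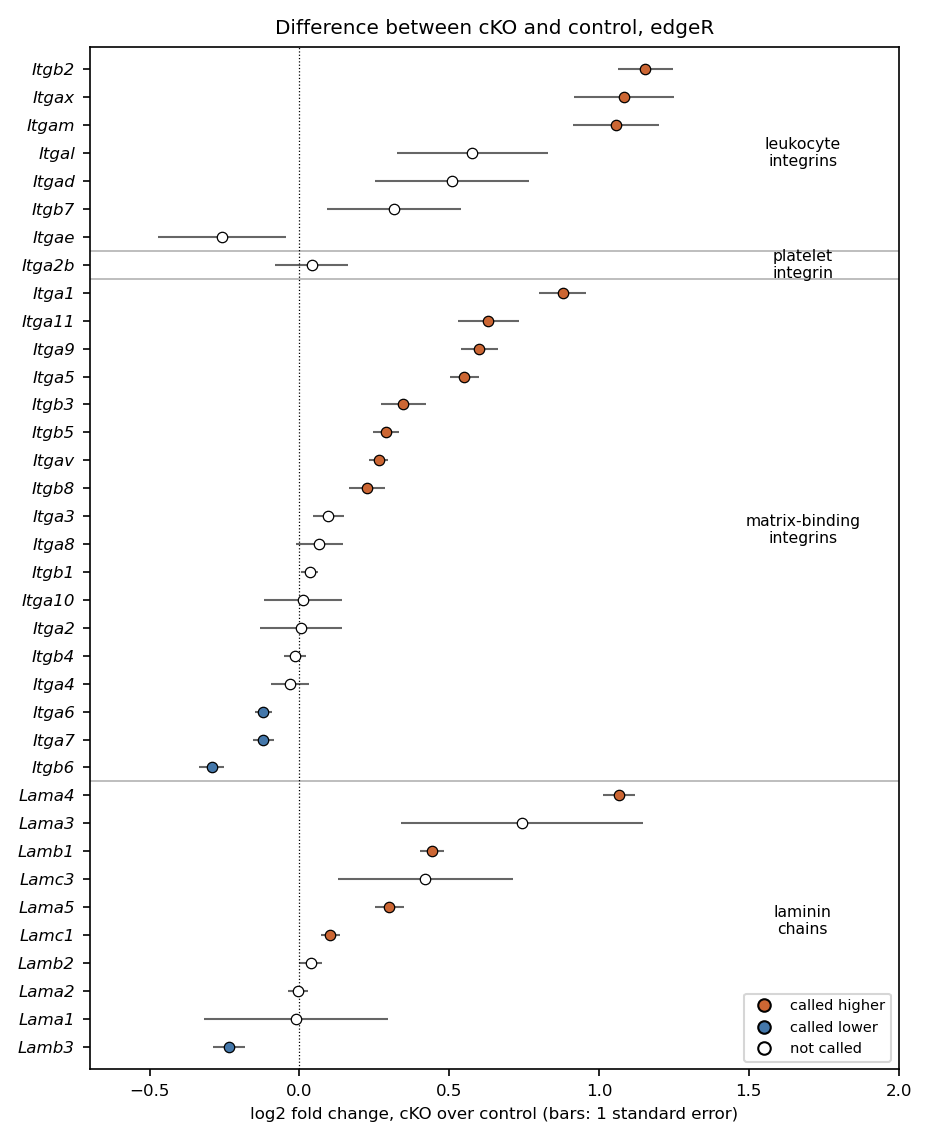
Log2 fold change of cKO over control for the members reported here (x axis) with bars of 1 standard error, ordered by size within each class (y axis). Filled points passed the test and open points did not. Itgb2 has the largest value at 1.15 and Itgb6 the lowest at -0.29.

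The laminin-binding chains Itga7 and Itga6 were the most abundant integrin alpha chains by CPM per kb, and of the 18 alpha chains they were the 2 called lower. Itga7, the alpha chain typical of muscle, gave 75.9 ± 1.39 CPM per kb in control and 71 ± 2.82 CPM per kb in cKO. In single samples it was 626, 615 and 603 CPM in the control samples and 596, 550.2 and 577 CPM in the cKO samples. All control samples stood above all cKO samples, and the difference was small (log2 fold change -0.12, SE 0.03, adjusted p = 0.0271). This call was not stable to the loss of 1 library. Leaving out control replicate 1, 2 or 3 gave an adjusted p of 0.104, 0.0981 or 0.0582, leaving out cKO replicate 2 or 3 gave 0.05, at the threshold, or 0.0503, and scaling by total counts alone gave 0.0625.

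Itga6, which forms laminin receptors with Itgb1 or Itgb4, was measured at 319, 308 and 313 CPM in the control samples and 293, 294 and 294 CPM in the cKO samples. The groups were apart, with cKO the lower (log2 fold change -0.12, SE 0.03, adjusted p = 0.00972), and leaving out control replicate 1 gave an adjusted p of 0.0567. Itga6 shares sequence with the pseudogene Gm29397, whose counts were 7.93% to 8.66% of those of Itga6 in each sample, and adding them to Itga6 kept the call. Itga3, the third chain of this list, was not called, with a log2 fold change of 0.10 and a 95% interval of -0.01 to 0.21. The median log2 fold change of the 3 chains was -0.12.

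Collagen-binding alpha chains were low in these cells, and 2 of the 4 were called higher in cKO. Itga1, whose dimer with Itgb1 binds basement membrane collagen IV, gave 8.9, 8.39 and 9.17 CPM in the control samples and 15, 18.8 and 15.5 CPM in the cKO samples. Every cKO sample was above every control sample, and cKO replicate 2 was the highest (1.84-fold, log2 fold change 0.88, SE 0.08, adjusted p = 1.2e-06). Itga11, a receptor chain for fibrillar collagens known from fibroblasts, gave 2.39, 2.94 and 2.75 CPM in the control samples and 4.13, 4.6 and 4.01 CPM in the cKO samples. The groups were again apart (log2 fold change 0.63, SE 0.10, adjusted p = 0.000452). At 0.828 and 0.884 CPM per kb in cKO, Itga11 and Itga1 stood far under Itga7. Itga2 and Itga10 were not called, with 95% intervals of -0.29 to 0.30 and -0.27 to 0.29 on the log2 scale. Itga10 shares 33.5% of its merged exon length with the same-strand gene Gm42957, so its reads may be split. Itga1 (chr13:114953096-115101964) and Itga2 (chr13:114833081-114932100) lie next to each other in mm10, and the 95% interval of Itga1, 0.71 to 1.04, did not reach that of Itga2.

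Of the RGD-binding alpha chains, Itga5 and Itgav were called higher and Itga8 was not called. Itga5, the alpha chain of the classical fibronectin receptor, was 73.2, 69.6 and 69.3 CPM in the control samples and 105, 114 and 96.5 CPM in the cKO samples. Group means were 70.7 ± 2.14 CPM and 105 ± 8.99 CPM (SD, n = 3), with no overlap (1.46-fold, log2 fold change 0.55, SE 0.05, adjusted p = 1.05e-06). Itgav, which pairs with several beta chains to bind vitronectin, fibronectin and latent TGF-β, was 232, 235 and 232 CPM in the control samples and 279, 299 and 276 CPM in the cKO samples. The control samples lay close together, and all cKO samples were above them (log2 fold change 0.26, SE 0.03, adjusted p = 3.83e-05). Itga8 had a 95% interval of -0.10 to 0.23.

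Itga9 and Itga4 form a separate pair of alpha chains that bind VCAM1, osteopontin, tenascin or fibronectin segments. Itga9 was 6.61, 6.76 and 7.0 CPM in the control samples and 10.5, 10.6 and 10.3 CPM in the cKO samples. These values were tight within each group and apart between groups (log2 fold change 0.60, SE 0.06, adjusted p = 5.21e-06). Itga4 was 17.6, 15.3 and 15.6 CPM in the control samples and 15, 17.1 and 16 CPM in the cKO samples, a level of 1.16 ± 0.0918 CPM per kb in control and 1.15 ± 0.0748 CPM per kb in cKO. Its groups overlapped and it was not called (log2 fold change -0.03, 95% interval -0.17 to 0.10).

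Among the matrix-binding beta chains, 3 of 6 were called higher and 1 lower, whereas the dominant chain was not called. Itgb1, the partner of most matrix-binding alpha chains, was 436 ± 4.13 CPM per kb in control and 454 ± 6.34 CPM per kb in cKO. In single samples it was 1766, 1771 and 1797 CPM in the control samples and 1825, 1877 and 1852 CPM in the cKO samples. The cKO values were all above the control values in CPM, but the scaled difference did not pass the test (log2 fold change 0.03, 95% interval -0.03 to 0.09, adjusted p = 0.502). Itgb1 made up 92% ± 0.231 of the summed CPM per kb of the 8 integrin beta chains in control and 92.3% ± 0.249 in cKO (SD, n = 3).

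The other beta chains were at most a few percent of that sum. Itgb5, a vitronectin receptor chain that pairs with Itgav, was 20.2, 20.8 and 19.8 CPM in the control samples and 25, 26 and 24.6 CPM in the cKO samples. All cKO samples were higher (log2 fold change 0.29, SE 0.04, adjusted p = 0.000246). Itgb5 shares sequence with the pseudogene Gm38317, whose counts were 18.3% to 24.4% of its own, and adding them kept the call. Itgb3, which pairs with Itgav or with the platelet chain Itga2b, was 9.8, 11.1 and 10.8 CPM in the control samples and 12.9, 15.4 and 12.8 CPM in the cKO samples. Its groups did not overlap and cKO replicate 2 was the highest sample (log2 fold change 0.35, SE 0.07, adjusted p = 0.00444).

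Itgb8 and Itgb6 both pair with Itgav and are known for the activation of latent TGF-β, and they were called in opposite directions. Itgb8 was 9.97, 9.71 and 9.71 CPM in the control samples and 12.5, 11.3 and 11.3 CPM in the cKO samples. The groups were apart (log2 fold change 0.23, SE 0.06, adjusted p = 0.0189), but leaving out control replicate 2, control replicate 3 or cKO replicate 1 gave an adjusted p of 0.0766, 0.0705 or 0.0604, and DESeq2 gave 0.0597. Itgb6, best known from epithelia, was 136, 137 and 131 CPM in the control samples and 119, 105 and 112 CPM in the cKO samples. The 3 cKO samples all lay under the control samples, with cKO replicate 2 the lowest (log2 fold change -0.29, SE 0.04, adjusted p = 0.000149). Per kb, Itgb6 was nonetheless the most abundant beta chain after Itgb1, at 18.9 ± 0.446 CPM per kb in control and 15.7 ± 0.934 CPM per kb in cKO. Epithelial markers (Epcam, Krt5, Krt14, Krt8 and Krt18) summed to at most 0.396 CPM in any sample. The ratio of Itgb6 to Itgav in CPM per kb was 0.873 ± 0.0172 in control and 0.595 ± 0.0569 in cKO (SD, n = 3). Itgb4, the partner of Itga6 in hemidesmosomes, was not called, with a 95% interval of -0.09 to 0.06.

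The makeup of the integrin alpha chain RNA differed between the groups accordingly. Itga7 was 48.4%, 48.6% and 48.1% in control and 44.4%, 41.4% and 44.1% in cKO, as a share of the summed CPM per kb of the 18 alpha chains. Itga6 was 22.1%, 21.9% and 22.4% in control and 19.6%, 19.8% and 20.1% in cKO. Both laminin receptor chains held a smaller share in each cKO sample than in each control sample. Itga5 was 9.28%, 9.04% and 9.07% in control and 12.8%, 14.1% and 12.1% in cKO, and Itgav was 13.5%, 14% and 14% in control and 15.7%, 17% and 15.9% in cKO. Each of these fibronectin and vitronectin receptor chains held a larger share in each cKO sample than in each control sample. The order of the 4 chains was Itga7, Itga6, Itgav and Itga5 in every sample. With length counted only as starts that leave a read inside 1 exon, Itgav and Itga5 were level, at 30.3 and 30.2 CPM per kb over all samples, and Itga9 stood above Itga4.

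Of the 11 laminin chains, 4 were called higher and 1 lower, and the largest difference was in an alpha chain. Lama4, the alpha chain of laminins around blood vessels and nerves that is also made by developing muscle, was 16, 16.8 and 15.7 CPM in the control samples and 32.2, 37.3 and 33.7 CPM in the cKO samples. Every cKO sample was far above every control sample (16.2 ± 0.583 CPM and 34.4 ± 2.62 CPM, SD, n = 3), and cKO replicate 2 was the highest (2.09-fold, log2 fold change 1.07, SE 0.05, adjusted p = 3.43e-09). Lama2, the alpha chain of the main muscle basement membrane laminin and the gene of merosin-deficient muscular dystrophy, was 153, 160.3 and 157 CPM in the control samples and 163, 164 and 151 CPM in the cKO samples. Its groups overlapped and it was not called (log2 fold change -0.00, 95% interval -0.08 to 0.07). Lama5, an alpha chain of laminins widespread in basement membranes, was 28.9, 30.7 and 30.7 CPM in the control samples and 36.1, 40.9 and 36 CPM in the cKO samples. Its groups were apart, with cKO the higher (log2 fold change 0.30, SE 0.05, adjusted p = 0.000519).

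The ratio of Lama2 to Lama4 in CPM per kb was 7.1, 7.04 and 7.39 in control and 3.74, 3.24 and 3.31 in cKO. Lama2 remained the most abundant laminin alpha chain in every sample. Its share of the summed CPM per kb of the 5 alpha chains was 70.4% ± 0.136 in control and 61% ± 1.63 in cKO, while that of Lama4 was 9.81% ± 0.266 and 17.8% ± 0.885 (SD, n = 3). Lama1, the alpha chain of embryonic laminin, and Lama3, that of epithelial laminin, were the lowest of the list, and Lama1, at no more than 25 reads in a sample, was not called. Lama3 had 15, 9 and 27 reads in the control samples and 10, 35 and 34 in the cKO samples. These overlapped and it was not called (log2 fold change 0.74, SE 0.40, adjusted p = 0.26), although leaving out cKO replicate 1 gave a log2 fold change of 1.06 with an adjusted p of 0.0443.

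**Figure D3:**
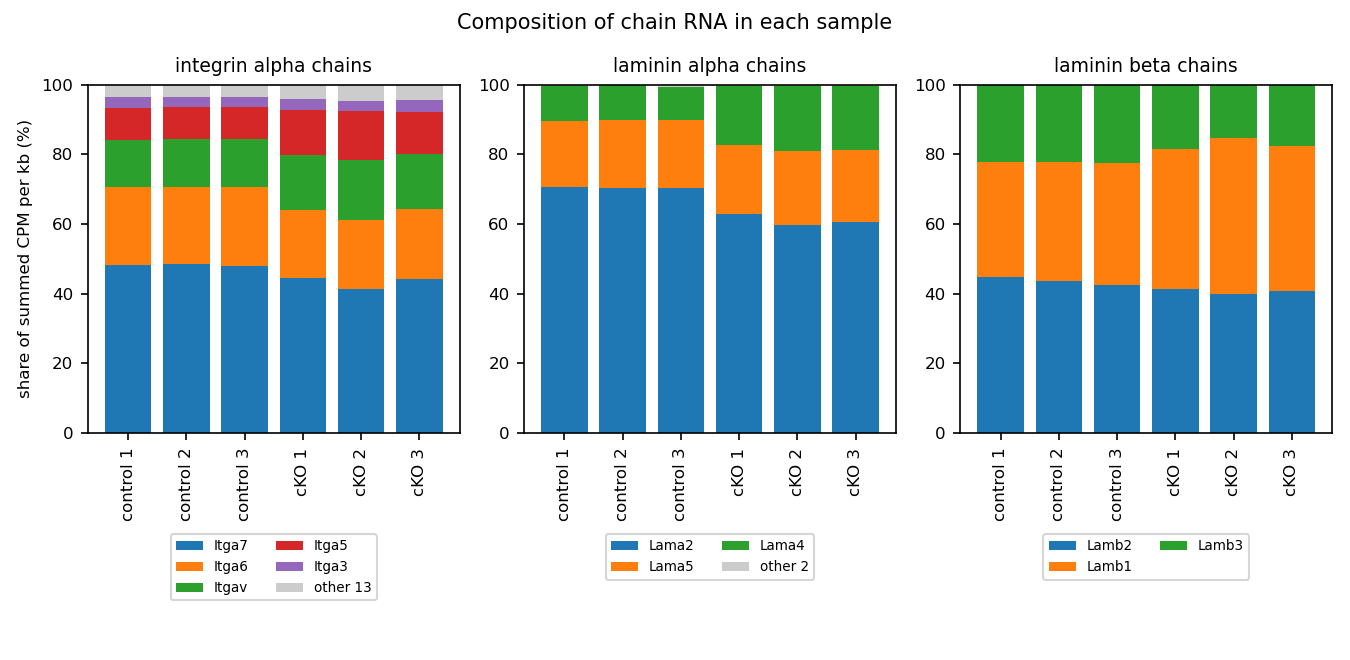
Share of each chain in the summed CPM per kb of its kind (y axis, percent) for integrin alpha chains and for laminin alpha and beta chains, with 1 stacked bar per sample. In the cKO bars the Itga7 and Lama2 segments are shorter and the Itga5, Lama4 and Lamb1 segments are longer than in every control bar.

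Laminin beta chains moved in opposite directions. Lamb1, the beta chain shared by most basement membrane laminins, was 137, 146 and 140.2 CPM in the control samples and 188, 209 and 188 CPM in the cKO samples. All cKO samples were above all control samples (1.36-fold, log2 fold change 0.44, SE 0.04, adjusted p = 1.13e-06). Lamb3, the beta chain of epithelial laminin, in which it joins Lama3, was 61, 62.8 and 60.1 CPM in the control samples and 57.6, 48.3 and 53.2 CPM in the cKO samples. All cKO samples were below all control samples, cKO replicate 2 lowest (log2 fold change -0.24, SE 0.05, adjusted p = 0.00592). Lamb2, the beta chain known from the neuromuscular junction, gave 18.2 ± 0.886 CPM per kb in control and 19 ± 0.449 CPM per kb in cKO. Its single samples were 114, 114 and 104 CPM in the control samples and 119, 114 and 114 CPM in the cKO samples. They overlapped and it was not called (95% interval -0.04 to 0.12). Lamb2 was the most abundant beta chain per kb in each control sample and Lamb1 was so in cKO replicates 2 and 3, whereas with length counted as read starts inside 1 exon Lamb2 was the higher over all samples, at 30.7 against 22.5 CPM per kb. The ratio of Lamb1 to Lamb2 in CPM per kb was 0.783 ± 0.0409 in control and 1.04 ± 0.0742 in cKO (SD, n = 3).

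Start site sequences of Lamb1 and Lamb3 are shown because the genes were called in opposite directions. Each is the RefSeq window from 250 bases before to 50 after the start, on GRCm38.p6, with matches to the GC box GGGCGG, a core element of many broadly used promoters, in capitals on either strand. For Lamb3 the upstream of 2 RefSeq windows is printed, and the GENCODE gene (chr1:193207699-193343878) reaches further upstream.
Lamb1 (chr12:31265043-31265342, + strand): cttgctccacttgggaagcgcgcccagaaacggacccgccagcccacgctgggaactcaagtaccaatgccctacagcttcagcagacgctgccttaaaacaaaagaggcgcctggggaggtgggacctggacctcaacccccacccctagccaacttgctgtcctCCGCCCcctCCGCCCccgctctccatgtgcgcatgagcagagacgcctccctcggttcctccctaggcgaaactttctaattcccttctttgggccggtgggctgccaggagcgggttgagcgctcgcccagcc
Lamb3 (chr1:193301744-193302043, + strand): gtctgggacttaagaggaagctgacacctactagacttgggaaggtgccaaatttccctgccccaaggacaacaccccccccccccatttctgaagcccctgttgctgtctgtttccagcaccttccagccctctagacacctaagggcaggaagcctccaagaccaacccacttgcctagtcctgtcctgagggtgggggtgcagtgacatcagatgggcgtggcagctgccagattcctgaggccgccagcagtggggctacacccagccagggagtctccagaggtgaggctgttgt
The Lamb1 window held 2 GC boxes and the Lamb3 window held none, while 35.6% of the 32817 promoters in the table held at least 1. Of the other members called higher, Itga1, Itga9, Itga11, Itgax and Itgb8 held none. Itgam and Itgav held 1 each, Itga5 held 2, Itgb5 held 3 and Lama5 held 4. Both windows of Itgb6, called lower, held none, and 1 window of Itga3, not called, held 3. A link of GC boxes to direction was not tested. These are matches of letters, not sites of binding.

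Of the laminin gamma chains, 1 was called higher and none lower. This was Lamc1, the gamma chain of nearly all laminins, at 23.9 ± 0.386 CPM per kb in control and 26.1 ± 0.971 CPM per kb in cKO. In single samples it was 201, 196 and 196 CPM in the control samples and 211, 225 and 211 CPM in the cKO samples. All cKO samples were higher, by a small amount (log2 fold change 0.10, SE 0.03, adjusted p = 0.0396). The call was lost with DESeq2 (adjusted p = 0.0530) and on leaving out control replicate 1, 2 or 3 (0.0645, 0.169 and 0.153) or cKO replicate 2 or 3 (0.131 and 0.0684). Lamc3 had at most 30 reads in a sample and was not called.

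Markers of other cell types were examined beside the matrix receptors and laminins, and the lists differed in how many genes were called. The study proposes that satellite cells lacking Hira express genes of other lineages, and it reported staining for VE-Cadherin, the protein of Cdh5. Of 7 tested fibroblast markers, 5 were called higher (list median 1.10), and the summed level of all 8 was 527 to 553 CPM in control and 789 to 881 CPM in cKO. Col3a1 and Col1a1 gave most of that sum, with means of 393 and 120 CPM in control and 462 and 298 CPM in cKO. Of the 8 endothelial markers, 4 were higher (2 by DESeq2 and 3 by limma-voom), with sums of 15.2 to 16.2 and 19.1 to 23.7 CPM. Kdr held with each library left out, whereas Pecam1, Cdh5 and Esam were each lost in 4 of 6 cases, which left 1 without cKO replicate 2 or control replicate 2 and 2 without control replicate 3. Of 7 tested smooth muscle and pericyte markers, 6 were higher and 1 lower, with sums of 3214 to 3271 and 3522 to 3661 CPM. Acta2 alone gave most of these sums, with means of 2929 CPM in control and 3180 CPM in cKO. In control it stood at 1334 CPM per kb, above the satellite cell and myoblast marker Des at 852 CPM per kb. Which cells made the Acta2 RNA was not tested. Of the 7 smooth muscle and pericyte calls, 4 held with each library left out, the losses being Acta2, Cspg4 and Abcc9. No tested Schwann cell marker of 5 was called by edgeR, DESeq2 or limma-voom, although 4 had an unadjusted p under 0.05, and the sums were 14.4 to 14.6 and 16.1 to 19.9 CPM. Of the defining markers in these lists, Lum had at most 12 reads in a sample and Kcnj8 at most 3, and none was at 0 in all samples. Of 8 satellite cell and myoblast markers, 6 were lower with a list median of -0.17, at sums of 8748 to 8837 CPM in control and 7747 to 8244 CPM in cKO. The sort left out cells stained for SCA1, which many fibroblasts and endothelial cells of muscle carry. The SCA1 gene Ly6a gave 178, 198 and 175 reads in the control samples and 183, 200 and 211 in the cKO samples. In CPM it was 3.15, 3.13 and 2.85 in control and 3.82, 3.38 and 3.78 in cKO, with every cKO sample above every control sample. Ly6a was not called by edgeR (log2 fold change 0.24, SE 0.10, unadjusted p = 0.0255, adjusted p = 0.115). The part of other cells in the integrin and laminin differences was not tested.

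Of the 7 leukocyte integrins, 3 were called higher in cKO and none lower, with log2 fold changes of 1.06 to 1.15. Itgb2, the beta chain that pairs with Itgal, Itgam, Itgax and Itgad, had 194, 180 and 207 reads in the control samples and 363, 450 and 370 in the cKO samples. The lowest cKO sample was far above the highest control sample (2.23-fold, log2 fold change 1.15, SE 0.09, adjusted p = 3.83e-07). Its level was 1.05 ± 0.106 CPM per kb in control and 2.38 ± 0.182 CPM per kb in cKO. Itgam, the alpha chain of the complement receptor and a marker of monocytes, macrophages and granulocytes, had 65, 57 and 61 reads in the control samples and 104, 136 and 109 in the cKO samples. Itgax, the related alpha chain of dendritic cells and tissue macrophages, had 40, 43 and 58 reads in the control samples and 87, 94 and 92 in the cKO samples. In both alpha chains the groups were apart (log2 fold change 1.06, SE 0.14, adjusted p = 9.19e-05 for Itgam, and log2 fold change 1.08, SE 0.17, adjusted p = 0.000324 for Itgax). Itgam shares 68.7% of its merged exon length with the same-strand model Gm49368, which held at most 1 read in a sample. All 3 calls held with any 1 library left out, at adjusted p-values of no more than 0.00321.

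The remaining 4 leukocyte chains were at the low end of all members, and none was called. Itgal, the alpha chain of the lymphocyte receptor for ICAM1, had 45, 35 and 22 reads in the control samples and 34, 54 and 52 in the cKO samples. Its groups overlapped through control replicate 1 (log2 fold change 0.58, SE 0.25, adjusted p = 0.15), and without that library the log2 fold change was 0.88 with an adjusted p of 0.0400. Itgad, an alpha chain of macrophages that also pairs with Itgb2, had 25, 20 and 33 reads in the control samples and 28, 45 and 29 in the cKO samples. Itgb7, the beta chain of gut-homing lymphocytes, had 35, 33 and 26 reads in the control samples and 36, 38 and 33 in the cKO samples. Itgae, its alpha chain partner on intraepithelial lymphocytes, had 49, 61 and 39 reads in the control samples and 29, 39 and 46 in the cKO samples. The groups of all these chains overlapped, and the 95% intervals were -0.04 to 1.06 for Itgad, -0.16 to 0.80 for Itgb7 and -0.71 to 0.20 for Itgae on the log2 scale. The interval of Itgal was 0.04 to 1.12, which holds the values of Itgam and Itgax. The list median was 0.58. No leukocyte chain was lower by DESeq2 or limma-voom, or at an unadjusted p under 0.05. The overlapping antisense and neighbouring models at Itgad hold part of its exons, and Gm17831 alone had 63 to 88 reads per sample.

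Itgam (chr7:128062640-128118491), Itgax (chr7:128129547-128150657) and Itgad (chr7:128154376-128223816) lie side by side in mm10, with Itgal (chr7:127296260-127335138) nearby. The RefSeq start windows of the 2 called neighbours, Itgam and Itgax, are shown because both genes rose together. Capitals mark GAGGAA or its reverse complement, the core of the sites of the myeloid factor PU.1.
Itgam (chr7:128062390-128062689, + strand): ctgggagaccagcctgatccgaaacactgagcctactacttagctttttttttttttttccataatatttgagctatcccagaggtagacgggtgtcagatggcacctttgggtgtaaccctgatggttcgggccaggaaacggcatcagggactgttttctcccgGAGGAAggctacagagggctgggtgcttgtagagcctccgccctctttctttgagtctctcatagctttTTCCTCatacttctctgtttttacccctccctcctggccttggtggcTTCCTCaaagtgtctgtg
Itgax (chr7:128129300-128129599, + strand): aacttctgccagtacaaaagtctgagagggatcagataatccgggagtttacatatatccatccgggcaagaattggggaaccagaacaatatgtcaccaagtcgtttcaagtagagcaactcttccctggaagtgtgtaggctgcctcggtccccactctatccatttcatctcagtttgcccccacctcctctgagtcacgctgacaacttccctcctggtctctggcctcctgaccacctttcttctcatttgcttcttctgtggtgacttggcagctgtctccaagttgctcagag
The Itgam window held 3 matches and the Itgax window none, and 28.3% of the 32817 promoters held at least 1. The match was not particular to leukocyte integrins. Of the other members called higher, Itgav held 2, and Itga5, Itga11, Lama5 and Lamb1 held 1 each. Of those not called, Itga2b held 2, and Itgb1, Itgb7, Lama2 and Lamb2 held 1 each. A single window each of Itga3 (not called) and of Itgb6 and Lamb3 (called lower) held 1. Itgax held 1 match to the E-box CAGCTG, the kind of site bound by MyoD and its relatives, which 16.3% of promoters hold. Windows of Itga1, Itga5, Itga9 and Itgb5 (called higher), Lamb3 (called lower) and Itga4 and Itga2b (not called) also held 1 each. These too are matches of letters, not sites of binding.

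Macrophage markers rose beside the leukocyte integrins, although CD45-positive cells were sorted out. All 15 of 15 markers, a list chosen with earlier results of these data known, were called higher. Their log2 fold changes had a median of 1.06 and ran from 0.83 for Laptm5 to 1.25 for C1qc. Their summed level was 152 to 158 CPM in control and 319 to 374 CPM in cKO, of which Lyz2, the macrophage lysozyme, gave most, at 81.1, 81.4 and 78.7 CPM in the control samples and 179.6, 205 and 172 CPM in the cKO samples. Ptprc, which encodes CD45, had 72, 94 and 94 reads in the control samples and 126, 169 and 167 in the cKO samples (log2 fold change 0.96, SE 0.12, adjusted p = 5.22e-05). The summed level of the 7 leukocyte integrins was 6.77 to 8.01 CPM in control and 13.1 to 14.5 CPM in cKO. Markers of other leukocytes were at or near 0. None of the 6 neutrophil markers or 6 T and NK cell markers passed the filter on low counts, with summed levels of at most 0.233 and 0.248 CPM in a sample, and S100a9, Elane and Ncr1 at 0 reads in all samples. Of the 5 B cell markers only Cd79a was tested and it was not called, the list summing to at most 0.605 CPM, with Ms4a1 at 0 in all samples. The part of macrophage RNA in the leukocyte integrin values was not tested.

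**Figure D4:**
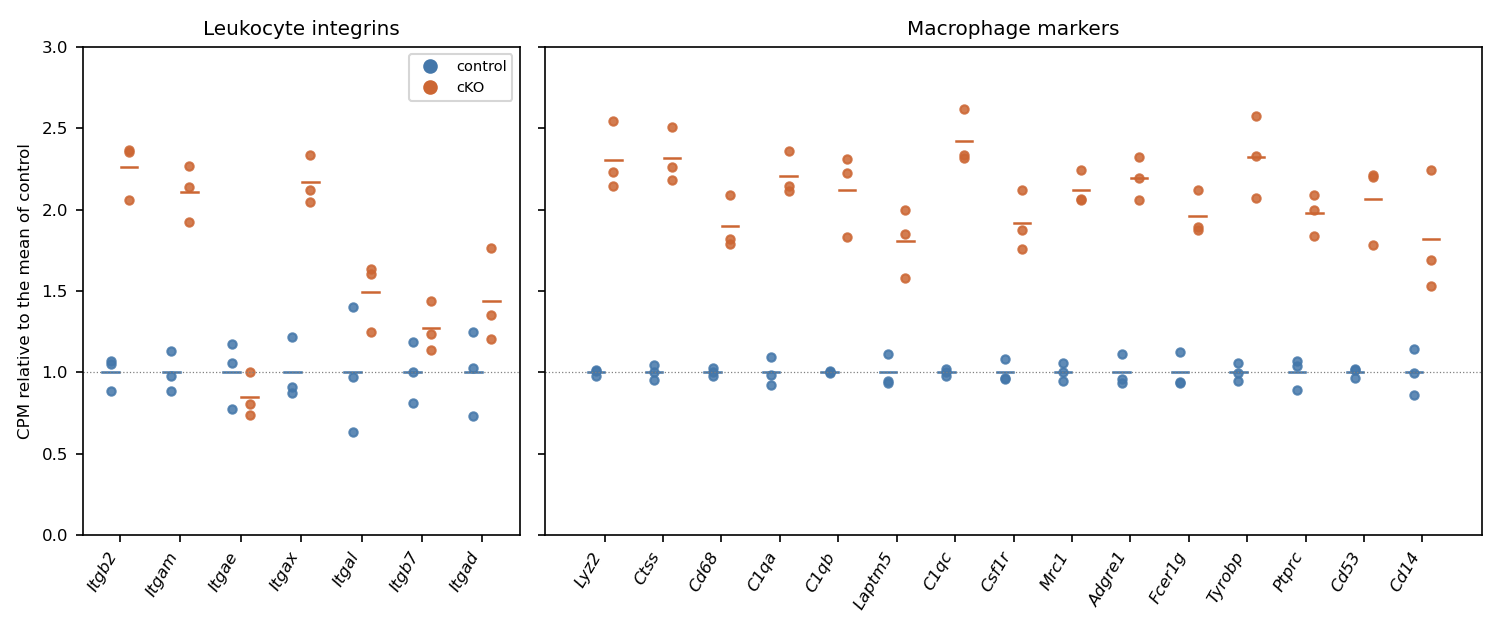
CPM relative to the mean of the control samples (y axis, linear from 0) for the 7 leukocyte integrins (left) and the 15 macrophage markers (right), with 1 point per sample and a line at each group mean. Itgb2, Itgam, Itgax and all 15 macrophage markers lie higher in every cKO sample than in every control sample, whereas the groups of the other 4 leukocyte integrins overlap.

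The platelet alpha chain Itga2b gave 2.21, 2.4 and 2.12 CPM in the control samples and 1.98, 2.6 and 2.42 CPM in the cKO samples. Its groups overlapped and it was not called (log2 fold change 0.04, 95% interval -0.22 to 0.30). Of the 7 platelet markers 3 were tested, and 2 of them, the platelet chemokines Pf4 and Ppbp, were higher. Pf4, which macrophages also express, had 35, 42 and 25 reads in the control samples and 111, 104 and 109 in the cKO samples (log2 fold change 1.80, SE 0.19, adjusted p = 8.56e-06), and Ppbp had 27, 19 and 16 reads in the control samples and 51, 62 and 77 in the cKO samples (log2 fold change 1.74, SE 0.24, adjusted p = 0.000114). The defining platelet receptor Gp9 was at 0 reads in all samples, and Gp6 had at most 2 reads in a sample. In contrast, the receptor gene Gp1ba, the remaining tested marker, had reads in every sample. Its CPM was higher in each cKO sample than in each control sample, and it was not called. The list summed to 2.05 to 2.53 CPM in control and 4.75 to 5.64 CPM in cKO.

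Laminin partners and other laminin receptors were higher in 6 of 10 cases and lower in 1, with a median of 0.17. The largest differences were in Nid1, the nidogen that ties laminin to collagen IV, and in the collagen IV chains. Nid1 was 97.3, 96.9 and 96.1 CPM in the control samples and 148, 177 and 158 CPM in the cKO samples (log2 fold change 0.71, SE 0.05, adjusted p = 5.45e-08). Col4a1 was 342, 345 and 337 CPM in the control samples and 521, 548 and 512 CPM in the cKO samples (log2 fold change 0.60, SE 0.03, adjusted p = 4.23e-09), and its partner Col4a2 was 171, 167 and 159.9 CPM in the control samples and 247, 249 and 246 CPM in the cKO samples (log2 fold change 0.55, SE 0.03, adjusted p = 1.22e-08). Groups were apart for all 3 genes, with cKO the higher. Dag1, the dystroglycan that also binds laminin, was the 1 gene of the list called lower and was named after its value was seen (log2 fold change -0.14, adjusted p = 0.0114, and 0.0685 without control replicate 1). Leaving out 1 library at a time gave 4 to 8 genes higher, with 4 called each time, and 0 to 2 lower. Hspg2, the basement membrane proteoglycan perlecan, was not called (log2 fold change 0.12, SE 0.04, adjusted p = 0.075).

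Matrix ligands of integrins were tested for 7 of 11 genes, of which 4 were higher and 2 lower, with a median of 0.23. Thbs1, thrombospondin 1, was 2386, 2386 and 2392 CPM in the control samples and 3805, 4251 and 3799.8 CPM in the cKO samples (log2 fold change 0.70, SE 0.04, adjusted p = 6.38e-09). Tnc, the tenascin bound by integrin α9, was 603, 639 and 636 CPM in the control samples and 958, 1127 and 959.9 CPM in the cKO samples (log2 fold change 0.67, SE 0.05, adjusted p = 1.71e-07). Spp1, osteopontin, another ligand of that receptor, was 1633, 1690.5 and 1689 CPM in the control samples and 1229, 1380.4 and 1317 CPM in the cKO samples (log2 fold change -0.38, SE 0.04, adjusted p = 4.2e-06). Thbs1 and Tnc were above control in each cKO sample and Spp1 was below it in each. All 6 calls of the list held with each library left out in turn. The other member called lower was Npnt, the nephronectin bound by integrin α8, named after its value was seen (log2 fold change -0.19, adjusted p = 0.00153). The fibrinogen genes Fga, Fgb and Fgg had 0 reads in all samples.

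Of 8 cell surface ligands of leukocyte integrins, 7 were tested, none was called higher and 2 were lower, with a median of 0.0063. The 2 were Vcam1 (log2 fold change -0.19, SE 0.03, adjusted p = 0.00111) and the junction protein Jam2 (log2 fold change -0.12, SE 0.03, adjusted p = 0.0166), at 83.4 ± 0.761 CPM in control (SD, n = 3). Vcam1 is the counter-receptor of integrins α4 and α9, which were counted here as matrix-binding. Vcam1 held with each library left out, and Jam2 had an adjusted p of 0.0574, 0.061 or 0.0778 without cKO replicate 3, control replicate 1 or control replicate 2. No gene of the list was higher by DESeq2 or limma-voom either, although 1, Icam1, had an unadjusted p under 0.05 with a log2 fold change of 0.73, and 1 gene was called higher without cKO replicate 1, cKO replicate 3 or control replicate 2. Icam1 was named after its value was seen.

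Adaptors and signalling proteins that link integrins to actin were tested for 28 of 29 genes, of which 10 were higher and 2 lower, with a median of 0.093. The largest values were in Apbb1ip, Lims2 and Fermt3. Apbb1ip, the talin recruiting protein of blood cells, was 1.52, 2.12 and 1.99 CPM in control and 3.52, 4.45 and 3.58 CPM in cKO (log2 fold change 1.01, SE 0.13, adjusted p = 6.63e-05). Lims2, the PINCH partner of integrin-linked kinase, was 6.1, 5.02 and 4.84 CPM in control and 9.34, 9.62 and 8.45 CPM in cKO (log2 fold change 0.76, SE 0.09, adjusted p = 1.86e-05). Fermt3, the kindlin of blood cells, was 2.63, 3.1 and 2.77 CPM in control and 4.05, 4.4 and 3.6 CPM in cKO (log2 fold change 0.48, SE 0.10, adjusted p = 0.00467). All 3 were low in level and apart between groups, and 2 of them, Apbb1ip and Fermt3, are best known from haematopoietic cells. The 2 called lower, named after their values were seen, were the PINCH protein Lims1 (log2 fold change -0.09, adjusted p = 0.0454) and Itgb1bp2, the muscle protein melusin (log2 fold change -0.15, adjusted p = 0.037). Neither held throughout: leaving out 1 library lost the call of Lims1 in 5 of 6 cases, with an adjusted p of up to 0.153, and that of Itgb1bp2 in 4, with up to 0.139, and no gene of the list was lower without control replicate 1, 2 or 3. Of the 10 called higher, 7 held with each library left out, Apbb1ip, Lims2 and Fermt3 among them, and the count was 7 without cKO replicate 2 or any 1 control replicate. Tln1, talin 1, which binds the tails of beta chains, was 549.7, 552 and 529 CPM in control and 575, 596 and 575 CPM in cKO and was not called (log2 fold change 0.07, SE 0.03, adjusted p = 0.118).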

How the data were processed

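RNA was measured in 3 control and 3 cKO samples of satellite cells. Libraries were stranded total RNA with ribosomal RNA removed from 400 ng, sequenced as single-end 75 bp reads. The authors aligned reads to mm10 with Bowtie2 2.3.4.2, which does not split reads over exon junctions, and deposited raw read counts per gene from featureCounts 1.6.3. The strand, multi-mapping and annotation settings are not given in the sources used here. Of read start positions in the merged exons of the members, 44.3% to 90.6% leave a whole read inside 1 exon, so levels per kb are understated most in genes of short exons, and reads of pseudogenes and overlapping genes may be split. The authors' table of normalized counts and their comparison, which holds fold changes and p-values from DESeq2 2.11.40.6, were not used.

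GENCODE M21 held all 55536 identifiers and gave symbols, biotypes and coordinates. Members and lists were chosen with earlier results of these data known. Counts were tested with edgeR 4.0.16 in R 4.3.3 (filterByExpr, TMM, quasi-likelihood F test, genotype as the single term, Benjamini-Hochberg adjustment over 22404 genes), checked on simulated data. SEs are the log2 fold change over the root of F, and intervals are 95%. The common biological coefficient of variation was 3.92%. Alternatives used DESeq2 1.42.0, limma-voom (limma 3.58.1), other scalings and filters, a replicate block and the loss of each sample. Named genes were every called member, every leukocyte integrin, Itga7, the most abundant member of each list per kb, and in other lists the 3 largest called changes and the gene with the highest CPM. CPM used total counts. No 2 replicates of a group agreed within sampling noise. Start windows came from RefSeq on GRCm38.p6, in which 23 of the 37 members had one, and motifs were searched on both strands. Values of 1 member and of some marker genes are not reported here, though they count in the totals.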

Additional observations from a re-analysis of the deposited data

How the results depend on the processing

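Of the 19 calls among the members, those of Itga6, Itga7, Itgb8 and Lamc1 were lost under at least 1 alternative, no called change reversed its sign, and the cause was not tested. Leaving out 1 library at a time gave 13 to 15 members higher and 2 to 5 lower, 3 to 4 leukocyte integrins higher and 0 lower, 7 to 8 matrix-binding integrins higher and 1 to 3 lower, and 3 to 5 laminin chains higher and 1 to 2 lower. In the other lists, an alternative chosen after seeing the data, it gave 7 to 11 adaptors higher and 0 to 2 lower, 4 matrix ligands higher and 2 lower, 0 to 1 cell surface ligands higher and 1 to 2 lower, and 4 to 8 laminin partners higher and 0 to 2 lower. Without control replicate 1, 2 members and 1 matrix-binding integrin were called lower, and Itga6 and Itga7 were the ones lost. In place of 1 laminin chain, 2 were called lower with RLE size factors, with no filter, with the robust fit and without cKO replicate 1. Same-numbered samples did not deviate together (correlations of -0.013, -0.0045 and -0.015 over genes). Whether they were processed in pairs was not stated, and correlations over 3 samples per group cannot settle it. With a replicate block, 14 members were higher and 4 lower, and Lamc1 was lost. DESeq2 gave 13 higher and 4 lower, losing Itgb8 and Lamc1, and limma-voom gave 15 and 4. Counting Itga4 with the leukocyte integrins left 3 higher. With length as the read starts inside 1 exon, the most abundant gene stayed so in 8 of 10 lists. A filter of 1 CPM in 3 samples left 30 members, of which 15 were higher and 4 lower. Itgal, Itgad, Itgae, Itgb7, Lama1, Lama3 and Lamc3 had under 1 CPM in every sample, and whether depth limited their calls was not tested.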
